A study of Arabidopsis thaliana with 21 samples.

Results

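AP3 (APETALA3, AT3G54340) and PI (PISTILLATA, AT5G20240) are the B-class floral genes of Arabidopsis thaliana, 2 of the 27444 protein-coding genes on the 5 nuclear chromosomes. They were taken by locus, with every deposited region that touched either gene or lay within 3 kb of it. That gave 4 regions at AP3 and 8 at PI, out of 5006 FIE, 4464 AZF1, 2622 BPC1 and 3940 H3K27me3 regions on those chromosomes.

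AP3 and PI encode MADS-box transcription factors that act as an obligate heterodimer. With A-class and SEPALLATA partners they specify petals, and with AGAMOUS and SEPALLATA proteins stamens, so their loss turns petals into sepals and stamens into carpels. Outside flowers both are textbook targets of Polycomb repression. Trimethylated lysine 27 of histone H3 (H3K27me3) is a mark of silenced developmental genes. It is set by Polycomb repressive complex 2 (PRC2), of which FIE is a WD40-repeat subunit. BPC1 is a BASIC PENTACYSTEINE protein, a family that binds GA repeats, and AZF1 is a C2H2 zinc finger protein.

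The chromatin immunoprecipitation sequencing (ChIP-seq) came from plants labelled 30 h old, grown in 16 h of light and 8 h of dark, in 7 groups of 3 biological replicates and 21 samples. FIE was precipitated with anti-HA from C24 plants in which pFIE:FIE-HA stood in the fie-11 background, and the C24 input came from the same line. AZF1 and BPC1 were precipitated with anti-Myc from Col plants carrying gAZF1-Myc or gBPC1-Myc, and the Col input came from the gAZF1-Myc line alone. H3K27me3 and total H3 were profiled in Col plants with no transgene. The accession therefore cannot be told apart from the protein wherever FIE is set beside the other lists. Whole plants were labelled as the source, with no tissue named, so cells that differ in these regions are averaged. Each of the 4 lists is 1 set of regions for its protein or mark, with no value per replicate and no read counts. The spread between replicates and the depth behind each region are unknown, and no difference between AP3 and PI could be tested. Fold enrichment is the ratio over control that the authors list for a region, and −log10 q is their measure of how surely it was called. The lists do not state whether the ratio stands for the summit or for the whole width. Fold and −log10 q were compared within a list only.

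Both genes held FIE, BPC1 and H3K27me3 regions, and AP3 also held an AZF1 region, while no AZF1 region was listed within 3 kb of PI. The lists hold no region with a −log10 q below 10, so weaker AZF1 signal at PI would not appear. The FIE region of highest fold was nearly the same height at the pair, 7.58 at AP3 and 7.11 at PI, while PI held 5 FIE regions and AP3 held 1. Of the 5, 3 lay outside PI in or at neighbouring genes. PI held 2 and AP3 still 1 when only regions that touch the gene were counted. The same counts came from keeping only those with a −log10 q above the list median, and from joining regions less than 500 bp apart. The 2 at PI were not the same regions each time. Above the median they were the widest region and another that lay 922 bp outside PI. After joining they were a region over PI and the region inside its neighbour BCB. BPC1 was higher at PI, with folds of 4.73 and 3.81 against 2.99 at AP3. H3K27me3 covered all of each gene, in a region of 5526 bp at PI and 3143 bp at AP3. On the lower-coordinate side it ran 2910 bp past PI, across the neighbouring gene BCB, and 641 bp past AP3. On the other side it ran 4 bp past PI and 327 bp past AP3. Among all protein-coding genes, 17% held a FIE region within 3 kb, 17.8% an AZF1 region, 10.5% a BPC1 region and 36.7% an H3K27me3 region. All 4 lists met at AP3, as at 2.58% of protein-coding genes, but its AZF1 and BPC1 regions had −log10 q values of 10.4 and 10.7. Neither was left when only regions above the list median were kept. The pattern of PI, with FIE, BPC1 and H3K27me3 but no AZF1, was that of 1.72%.

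**Figure D1:**
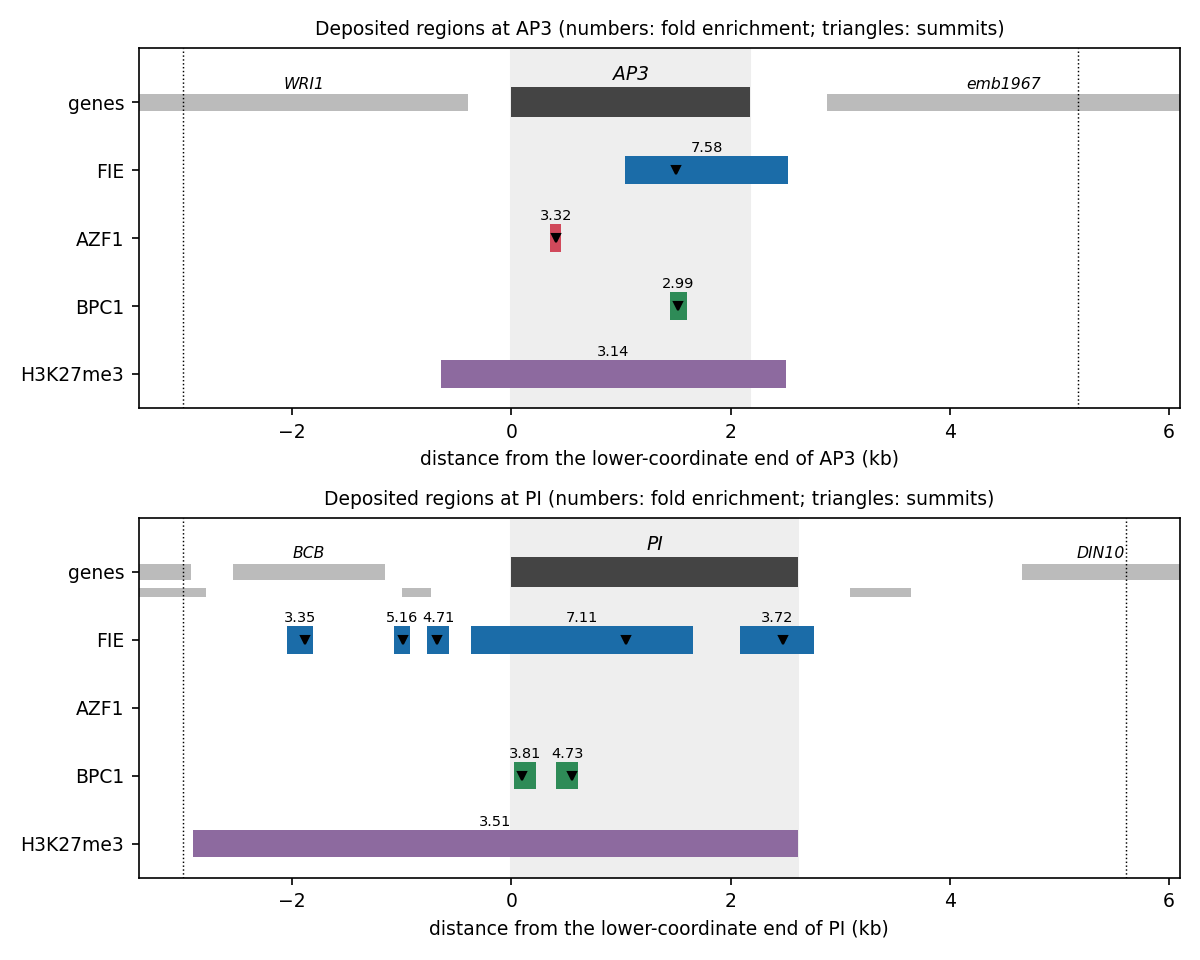
Regions of the 4 lists at AP3 (top) and PI (bottom) by distance in kb from the lower-coordinate end of the gene, with the fold enrichment above each region, triangles at summits, other genes in light grey (thin bars for non-coding ones) and dotted lines at 3 kb from the gene. FIE and BPC1 summits are 16 bp apart at AP3 and 493 and 948 bp apart at PI, where 3 FIE regions lie outside the gene and the AZF1 row is empty.

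At AP3 the FIE region lay on chromosome 3, 20120176 to 20121666. It was 1491 bp wide, with a fold of 7.58 and a −log10 q of 37.6. Its fold exceeded that of 91.3% of FIE regions and its width that of 96.4%. It covered 52.4% of AP3, the part at higher coordinates, and ran 352 bp past that end of the gene. The gene table used gives no strand, so positions are stated by coordinate and not as upstream or downstream. The next gene on that side, emb1967, named for an embryo-defective mutant, began 350 bp beyond the region. By distance the region may be counted for AP3, which it touches, or for emb1967.

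The BPC1 region of AP3 lay inside the FIE region, at 20120587 to 20120744. It was 158 bp wide and lay 1272 bp from emb1967, so by distance it may be counted for that gene or for AP3. Its fold of 2.99 exceeded that of 53.2% of BPC1 regions. Its −log10 q of 10.7 exceeded only 14.1% of them, as the BPC1 list begins at a −log10 q of 10. The BPC1 summit stood 16 bp from the FIE summit, both at about 70% of the gene length from the lower-coordinate end (69.9% for BPC1 and 69.2% for FIE).

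The AZF1 region of AP3 lay apart from both, at 20119494 to 20119593, with its summit 411 bp inside the lower-coordinate end of the gene. Its fold of 3.32 exceeded 77.3% of AZF1 regions, but its −log10 q of 10.4 exceeded only 7.89% of them. The region ended 582 bp before the FIE region and 993 bp before the BPC1 region. Of the 1522 protein-coding genes with both AZF1 and FIE within 3 kb, 30.9% likewise had no AZF1 region that overlapped FIE. The gene on this side is WRI1, an AP2-type regulator of oil synthesis in seeds, which ended 394 bp from AP3. The AZF1 region was 748 bp from WRI1 and inside AP3, so it may be counted for either gene. No FIE, AZF1 or BPC1 region touched WRI1 itself.

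H3K27me3 at AP3 formed 1 region, 20118499 to 20121641, with a fold of 3.14 that exceeded 67.8% of the list. It covered all 2175 bp of AP3. It reached 641 bp past the lower-coordinate end and so entered WRI1 by 247 bp, and did not touch emb1967. The AZF1 and BPC1 regions lay wholly inside it, and 98.3% of the FIE region did. The mark and FIE thus ended 25 bp apart on the higher-coordinate side, at 20121641 and 20121666. On the other side the mark went on for 1677 bp beyond the end of the FIE region, across the AZF1 region.

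At PI the widest FIE region lay on chromosome 5, 6828531 to 6830560. It was 2030 bp wide, with a fold of 7.11 and a −log10 q of 37.5. Its fold exceeded that of 89.3% of FIE regions. Its −log10 q was close to that of the AP3 region. Unlike the AP3 region it took in the lower-coordinate end of the gene, starting 373 bp before it, and its summit stood at 40.1% of the gene length. A lower FIE region at 6830991 to 6831668, with a fold of 3.72, crossed the higher-coordinate end. Together these covered 83.5% of PI, a share reached by 0.474% of protein-coding genes, while the 52.4% of AP3 was reached by 1.25%.

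The other 3 FIE regions of PI lay outside the gene on the lower-coordinate side. One at 6828138 to 6828331 had a fold of 4.71 and lay 572 bp from PI. One at 6827830 to 6827981 had a fold of 5.16 and lay 922 bp from it. Both touched AT5G03115, an lncRNA gene between PI and BCB. The farthest, at 6826853 to 6827091, had a fold of 3.35, exceeded only 5.59% of FIE regions and lay inside BCB, a blue copper-binding protein gene, 1812 bp from PI. These 3 regions may therefore be counted for a neighbour of PI. The widest FIE region touched PI but lay 360 bp from AT5G03115, so by distance it too may be counted for either gene.

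Among protein-coding genes, 0.321% held 5 or more FIE regions within 3 kb, and of the 4669 with any, 66.0% held 1. The number depends on whether close regions are counted apart. Gaps between successive FIE regions at PI were 738, 156, 199 and 430 bp. Whether they divide a continuous signal was not tested, as the lists hold no read counts. With regions less than 500 bp apart joined, PI held 2 FIE regions and AP3 still 1. The 2 at PI were a region over the gene and the region inside BCB. By bases, FIE regions within 3 kb summed to 3293 bp at PI and 1491 bp at AP3.

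PI carried 2 BPC1 regions, both wholly inside its widest FIE region and inside the part of the gene at lower coordinates. The first, at 6828925 to 6829130, had a fold of 3.81 and a −log10 q of 16.6. The second, at 6829312 to 6829511, had a fold of 4.73, above 96.5% of BPC1 regions, and a −log10 q of 18.5. They were 181 bp apart. They lay 754 and 1141 bp from AT5G03115 and inside PI, so by distance they may be counted for either gene. Overlap of BPC1 with FIE was usual, at 87.0% of the 1526 protein-coding genes with both within 3 kb. Their −log10 q values exceeded 72.3% and 81.8% of the list, where the AP3 region exceeded 14.1%. Of protein-coding genes, 2.06% held 2 or more BPC1 regions within 3 kb. When only regions with a −log10 q above the list median were kept, PI kept both BPC1 regions, and AP3 did not keep its own.

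**Figure D2:**
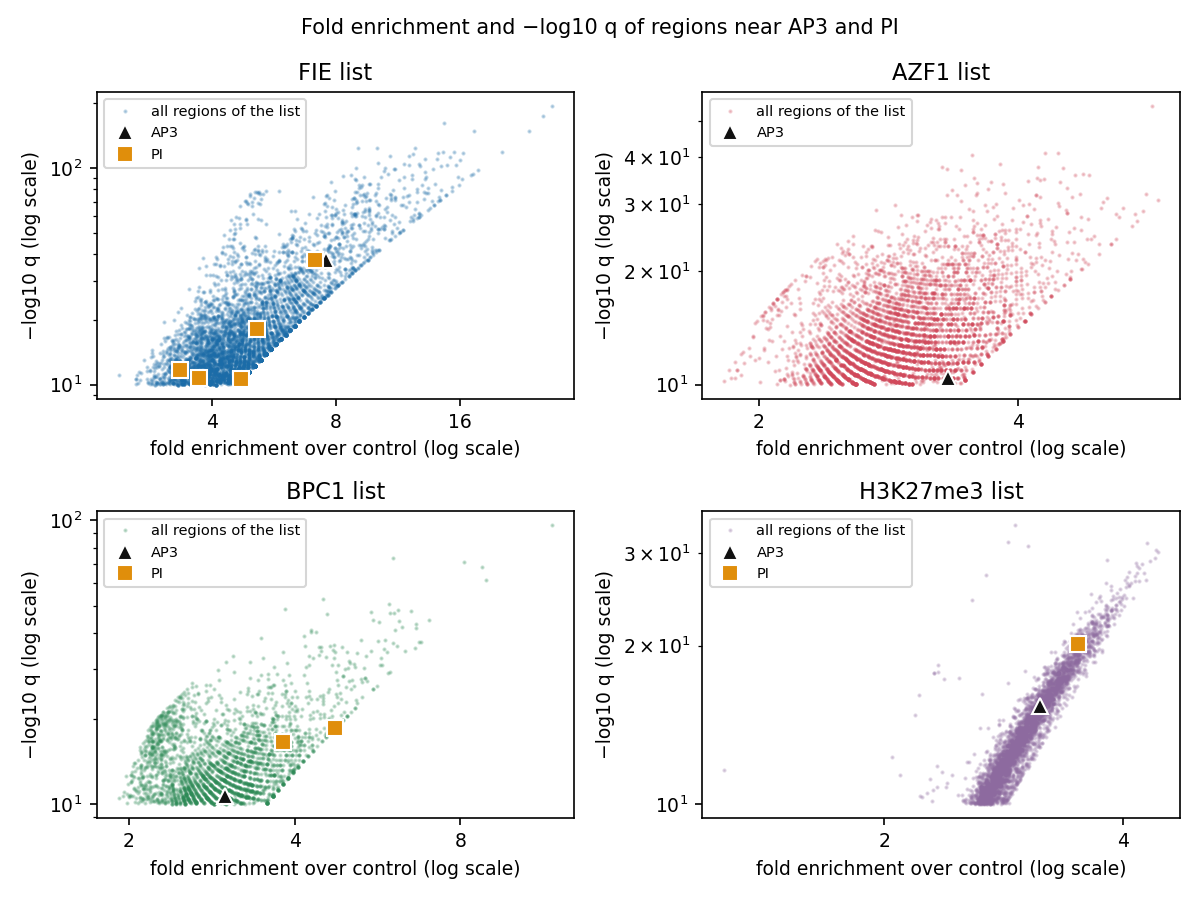
Fold enrichment over control (x axis, log scale) against −log10 q (y axis, log scale) for every nuclear region of each list (dots), with the regions of AP3 as black triangles and those of PI as orange squares. The highest FIE regions of both genes sit side by side near a −log10 q of 37.5, whereas the AZF1 and BPC1 regions of AP3 lie at the lower edge of their lists and the BPC1 regions of PI lie above it.

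The BPC1 and FIE summits, which stood together at AP3, were apart at PI. The BPC1 summits of PI were 948 and 493 bp from the summit of the FIE region that held them. Over the 1391 BPC1 regions that overlapped a FIE region the median distance was 15 bp, with quartiles of 6 and 41 bp, so the 16 bp at AP3 was close to the middle. The distances at PI were longer than those of 93.7% and 87.7% of these regions. Both FIE regions are wide, and a narrow list gives 1 summit per region however wide it is. Among the 459 BPC1 regions in FIE regions of 1000 bp or more, the median distance was 263 bp and the quartiles were 13.5 and 738.5 bp. The 16 bp at AP3 and the 493 bp at PI fell between those quartiles, and the 948 bp at PI lay above them.

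**Figure D3:**
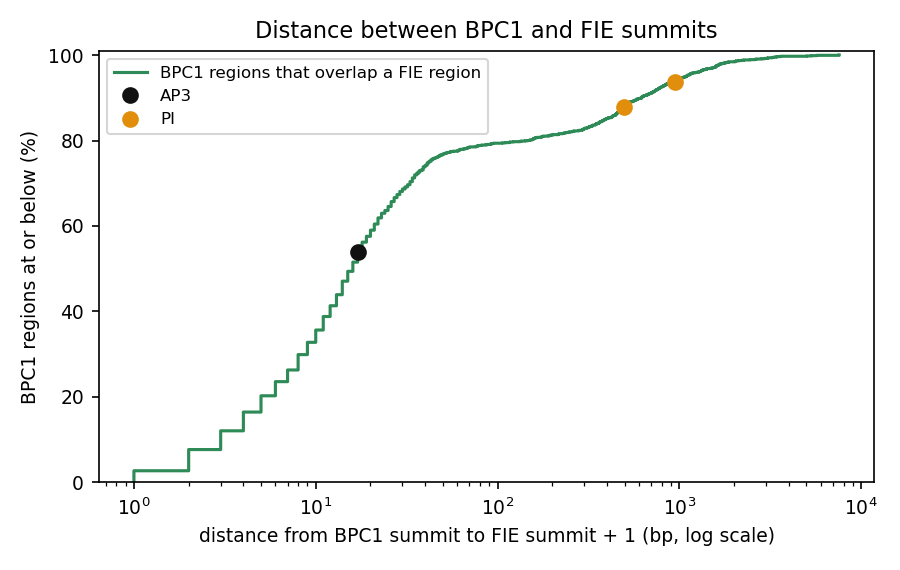
Distance in bp (plus 1, log scale) from each BPC1 summit to the nearest summit of an overlapping FIE region, as the cumulative percent of the 1391 BPC1 regions that overlap FIE (line). The AP3 region (black) sits at 16 bp near the middle of the line and the PI regions (orange) at 493 and 948 bp near its top.

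H3K27me3 at PI was 1 region, 6825994 to 6831519, 5526 bp wide. Its fold of 3.51 exceeded 91.8% of the list, against 67.8% for the region at AP3. It covered all 2612 bp of PI and all of BCB, and touched the non-coding genes AT5G20225 and AT5G03115. Of its width 47.3% lay in PI, while 69.2% of the region at AP3 lay in AP3. The region at PI and its fold may therefore be counted for BCB as well as for PI. Complete cover was not rare, since 11.8% of protein-coding genes were wholly inside H3K27me3 regions. The mark ended 4 bp past the higher-coordinate end of PI, while FIE ran beyond it, so 78.0% of the last FIE region lay inside the mark. The other 4 FIE regions and both BPC1 regions lay wholly inside it. On that side AT5G00425, a non-coding gene 474 bp from PI, and DIN10, a dark-inducible gene, were touched by no region of any list. The last FIE region ended 321 bp from AT5G00425, so by distance it may be counted for that gene or for PI.

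The nearest regions outside 3 kb were also listed, with no such distances taken for other genes. The nearest FIE region outside 3 kb was 20.5 kb from AP3 (fold 4.76) and 15.5 kb from PI (fold 4.23). The nearest H3K27me3 regions outside were 36.1 kb from AP3 (fold 3.01) and 39.9 kb from PI (fold 2.69). For BPC1 the nearest outside AP3 was 137.9 kb away, with a fold of 2.58. The nearest AZF1 region to PI was 6.61 kb away inside AT5G20220, with a fold of 2.81, and a BPC1 region with a fold of 2.53 overlapped it. For AP3 the nearest further AZF1 region was 21.4 kb away, with a fold of 2.69.

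AP3 and PI were then set beside 18 genes of the B-class network, a list made with earlier results of these data known. It holds regulators of B-class genes (LFY, UFO, AP1, CAL, AP2, SUP and RBE), MADS-box partners (AG and SEP1 to SEP4), the B-sister genes TT16 and GOA, and targets of the heterodimer (NAP, GNC, GNL and BNQ1). Regions within 3 kb were listed for FIE at 12 of 18 genes (17% of all protein-coding genes), for AZF1 at 8 (17.8%), for BPC1 at 9 (10.5%) and for H3K27me3 at 14 (36.7%). The FIE folds of AP3 and PI were in the lower part of this network. Of the 14 genes with FIE, counting AP3 and PI, they ranked 5 and 4 from the lowest, and the median of the other 12 was 9.49.

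All 4 lists met at 6 of the 18 genes, against 2.58% of protein-coding genes. AG, the C-class gene that acts with AP3 and PI in stamens, had the highest FIE fold of the network, 25.5, with 5.21 for AZF1 and 8.92 for BPC1. AP1, the A-class gene, had 15.3, 3.55 and 4.89 for FIE, AZF1 and BPC1. SEP1 had 10.02, 3.14 and 6.05, and SEP2 had 14.9, 3.41 and 4.75. The remaining 2 were GNC and GNL (also CGA1), GATA factor genes that AP3 and PI repress, with FIE folds of 9.22 and 6.66. No list had a region at AP2, a floral regulator of the A class, or at NAP, a NAC gene activated by AP3 and PI, as at 48.8% of protein-coding genes. By role, FIE was listed at 5 of 5 MADS-box partners, 4 of 7 regulators, 2 of 4 targets and 1 of 2 B-sister genes, beside 17% of all protein-coding genes.

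**Figure D4:**
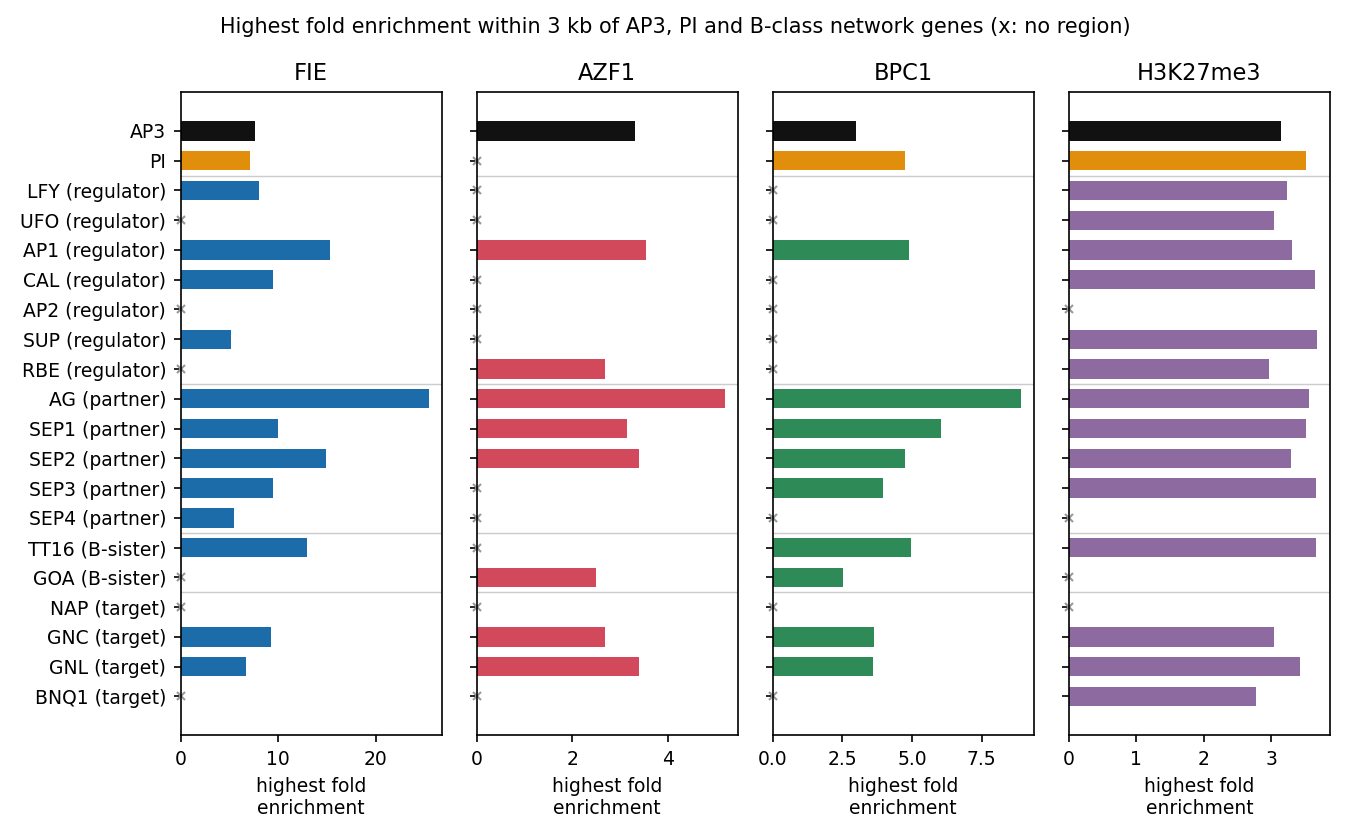
Highest fold enrichment over control within 3 kb of AP3 (black), PI (orange) and the 18 network genes, 1 panel per list, with a cross where the list has no region. FIE folds of AP3 (7.58) and PI (7.11) lie below those of AG (25.5), AP1 (15.3), SEP1 (10.02) and SEP2 (14.9), and PI has no AZF1 region.

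The MADS-box genes of the network most like each member in their 4 highest folds were found by Euclidean distance on log2(fold + 1), with 0 for a list without a region. For AP3 these were SEP1 (0.91), SEP2 (1.04) and AP1 (1.09), all with AZF1. For PI they were SEP3 (0.43) and TT16 (0.79), both without AZF1, and then SEP1 (2.12). AP3 and PI were 2.18 apart on this scale, farther than AP3 was from SEP1, SEP2, AP1, AG or SEP3. Seen from PI, only SEP3, TT16 and SEP1 were nearer than AP3, and SEP2 (2.35) and AP1 (2.41) were farther. Most of the distance between AP3 and PI came from AZF1, with a fold of 3.32 at AP3 and 0 set for PI. SEP3, a cofactor of the heterodimer, had folds of 9.50 for FIE, 3.97 for BPC1 and 3.67 for H3K27me3. TT16, which acts in the seed coat, had 12.98, 4.97 and 3.67. The distance weighs the presence of a region heavily, and that of AZF1 at AP3 rests on a region near the lower limit of its list. That the nearest genes share the AZF1 state of AP3 or PI thus follows largely from the scoring and is no separate result.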

How the data were processed

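ChIP-seq of FIE, AZF1, BPC1, H3K27me3, H3 and inputs was deposited as 4 region lists. The submitters' processing notes name MACS2 2.1.1.20160309, Bowtie2, bedtools and the TAIR10 build, without settings. Since no list tells replicates apart, each was treated as a pool of its group's replicates. In the authors' files, read by the MACS2 column order, column 7 is a ratio (fold enrichment over control), beside −log10 q and a score of 10 times −log10 q, and the narrow lists add a summit. Each list holds no −log10 q below 10 and has gaps in its region numbers. The series design names C24 input, Col input and H3 as controls.

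Regions on the 5 nuclear chromosomes were placed with Python 3.11.15 and pandas 2.3.3, with 1-based coordinates. Overlap counted from 1 bp. Genes came from a RefSeq table of TAIR10.1, taken to be numbered as TAIR10 on nuclear chromosomes. As a check, the share of summits inside genes was highest with no shift (49.9% for FIE, 62.4% for AZF1 and 65.9% for BPC1) among shifts of up to 2000 bp. Distances to genes rest on that table, and its coordinates are not printed. No genome, promoter or protein sequence was used here. All 18 network genes were matched by locus.

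Percentiles are shares of a list, or of protein-coding genes, with a lower value, given as descriptions. The placement code was tested on simulated regions. Named genes were AP3, PI, genes within 3 kb of them, network genes in all 4 lists or none, and the 3 MADS-box genes of the network nearest to each member in its folds; other network genes are named without values. The members and lists were chosen with earlier results of these data known. The alternatives tried were other distances from the gene, a stricter −log10 q, summits in place of regions, other overlap rules and joined regions.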

Additional observations from a re-analysis of the deposited data

How the results depend on the processing

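No paired analysis was possible because the lists hold no value per replicate; for the same reason leaving out a replicate was not run. Of 129 alternative values for 30 results, 107 kept their value (counts: within 1.5 times). With only regions above the list median of −log10 q, AP3 held 0 AZF1 and 0 BPC1 regions and 1 overlapping pair instead of 4, PI held 2 FIE regions instead of 5, and 4 instead of 8 network genes held AZF1. Under the same filter PI held 6 overlapping pairs instead of 9, and 4 instead of 6 network genes held all 4 lists. Both of these count as kept by the 1.5 times rule. Counting only regions that touch the gene, PI held 2 FIE regions. With regions under 500 bp apart joined, an alternative chosen after seeing the data, PI held 2 FIE regions and 1 BPC1 region instead of 2. No highest fold changed under any alternative, and none could. Each such region touches its gene, and it either passed the −log10 q filter or was removed by it, leaving no value. These unchanged folds are among the 107 values kept. The share covered fell with the span, by construction. For AP3 with 1 kb and with 3 kb at both ends it was 35.7% and 18.2% for FIE, 2.40% and 1.22% for AZF1, 3.78% and 1.93% for BPC1, and 75.3% and 38.4% for H3K27me3. For PI it was 64.6% and 38.2% for FIE, 8.80% and 4.71% for BPC1, and 78.4% and 64.2% for H3K27me3. Depth per region is unknown, and signal under a −log10 q of 10 is not in the lists, so a gene without a region is not shown to lack binding.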
